A study of Saccharomyces cerevisiae with 24 samples.

Results

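The 8 genes described here encode the enzymes of upper glycolysis in the budding yeast Saccharomyces cerevisiae, from the hexose kinases to aldolase. They are HXK1 (YFR053C), HXK2 (YGL253W), GLK1 (YCL040W), EMI2 (YDR516C), PGI1 (YBR196C), PFK1 (YGR240C), PFK2 (YMR205C) and FBA1 (YKL060C). They were chosen by name, and each was represented by the probe set that the array's probe-to-gene table pairs with that gene alone, the one with the highest mean signal where a gene had several. Each of the 8 had 1 such probe set. They are 8 of the 5656 genes with a single-gene probe set, and all 8 passed the filter on low signals that left 5171 genes to be tested.

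Signals came from 24 one-colour expression arrays of strain BY4730, a MATa haploid laboratory strain that lacks functional LEU2, MET17 and URA3, and all treated and control cells carry that background. Cells were exposed for 120 min to bleomycin, which breaks DNA strands, to methyl methanesulfonate (MMS), which alkylates DNA, to cisplatin, which crosslinks DNA, or to NaCl or ethanol. Of the 3 bleomycin arrays, the second is labelled 0.1 U/ml and the other two 0.15 U/ml, and of the 3 MMS arrays the third is labelled 0.14% and the other two 0.12%. The 2 cisplatin arrays are labelled 500 and 650 ug with no volume, the 3 NaCl arrays 10%, 8% and 9% (replicates 1, 2 and 3), and the 2 ethanol arrays 15%. The protocol text gives other amounts or units than the titles for cisplatin and NaCl, so those doses are uncertain. The 11 control arrays came from cells given solvent (DMSO) or left in medium, and the labels do not tell these apart. The titles give 12 dates, taken here as 11 days: ethanol replicate 1 was put on the day of control replicate 6, which has the same month and day in its title but another year. Each treated array was set against the control array of its day, bleomycin replicate 1 and NaCl replicate 1 sharing control replicate 2, bleomycin replicate 2 and NaCl replicate 2 sharing control replicate 4, and bleomycin replicate 3 and cisplatin replicate 2 sharing control replicate 5. The labels do not say that arrays of a group came from separate cultures, so p-values measure the spread between these arrays only. In a bulk culture, fewer cells that express a gene and less RNA per cell cannot be told apart.

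Glycolysis begins with the phosphorylation of glucose by hexokinase or glucokinase, which traps the sugar in the cell. Glucose 6-phosphate is then isomerised to fructose 6-phosphate, phosphorylated a second time by phosphofructokinase, and split by aldolase into a pair of triose phosphates. In yeast the glucose supply sets which hexose kinase is made: HXK2 is the main enzyme of cells growing on glucose, while HXK1 and GLK1 are repressed by glucose and belong to the genes that many stresses induce.

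The control arrays showed the strain's marks only in part. URA3 lay at 3.07 to 3.97 and MET17 at 3.60 to 4.23 on the log2 scale, near the filter value of 3.79, while the 3 probe sets of LEU2 lay at 4.90 to 6.37. Of the genes specific to MATa cells, MFA1 lay at 11.83 to 13.04 on its brighter probe set, MFA2 at 11.29 to 12.31, STE2 at 6.12 to 8.59 and BAR1 at 7.47 to 8.43, while the MATalpha genes STE3, MF(ALPHA)1 and MF(ALPHA)2 reached at most 4.06, 5.66 and 4.77. The arrays differed in the control probe sets that read the 5′ end, the middle and the 3′ end of the actin mRNA ACT1, which move with the state of the RNA and also with the level of ACT1 itself. The ACT1 5′ signal was under 7.5 on 1 of 3 bleomycin, 0 of 3 MMS, 1 of 2 cisplatin, 3 of 3 NaCl and 2 of 2 ethanol arrays and on 6 of 11 control arrays. The ACT1 3′ signal was under 10 on NaCl replicates 2 and 3 and on control replicate 11.

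The upper glycolysis genes followed the ACT1 5′ class among the control arrays themselves. PGI1 averaged 7.28 ± 1.51 in the 6 controls of the low class and 10.44 ± 0.49 in the 5 of the high class (SD). GLK1 averaged 7.16 ± 0.80 and 9.74 ± 0.24, HXK2 7.52 ± 1.02 and 9.90 ± 0.36, and FBA1 10.01 ± 1.33 and 12.16 ± 0.12 in the low and the high class. EMI2 differed least, at 8.80 ± 0.19 in the low class and 9.21 ± 0.21 in the high class. Control replicate 2 had a low ACT1 5′ signal, yet its signals of the 8 genes lay with or near those of the high class. The 3 controls that share a day with MMS were all of the low class, and the 3 MMS arrays were all of the high class. Where that difference touches a result, values are given with the day as a block and with the ACT1 class in place of the day.

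**Figure D1:**
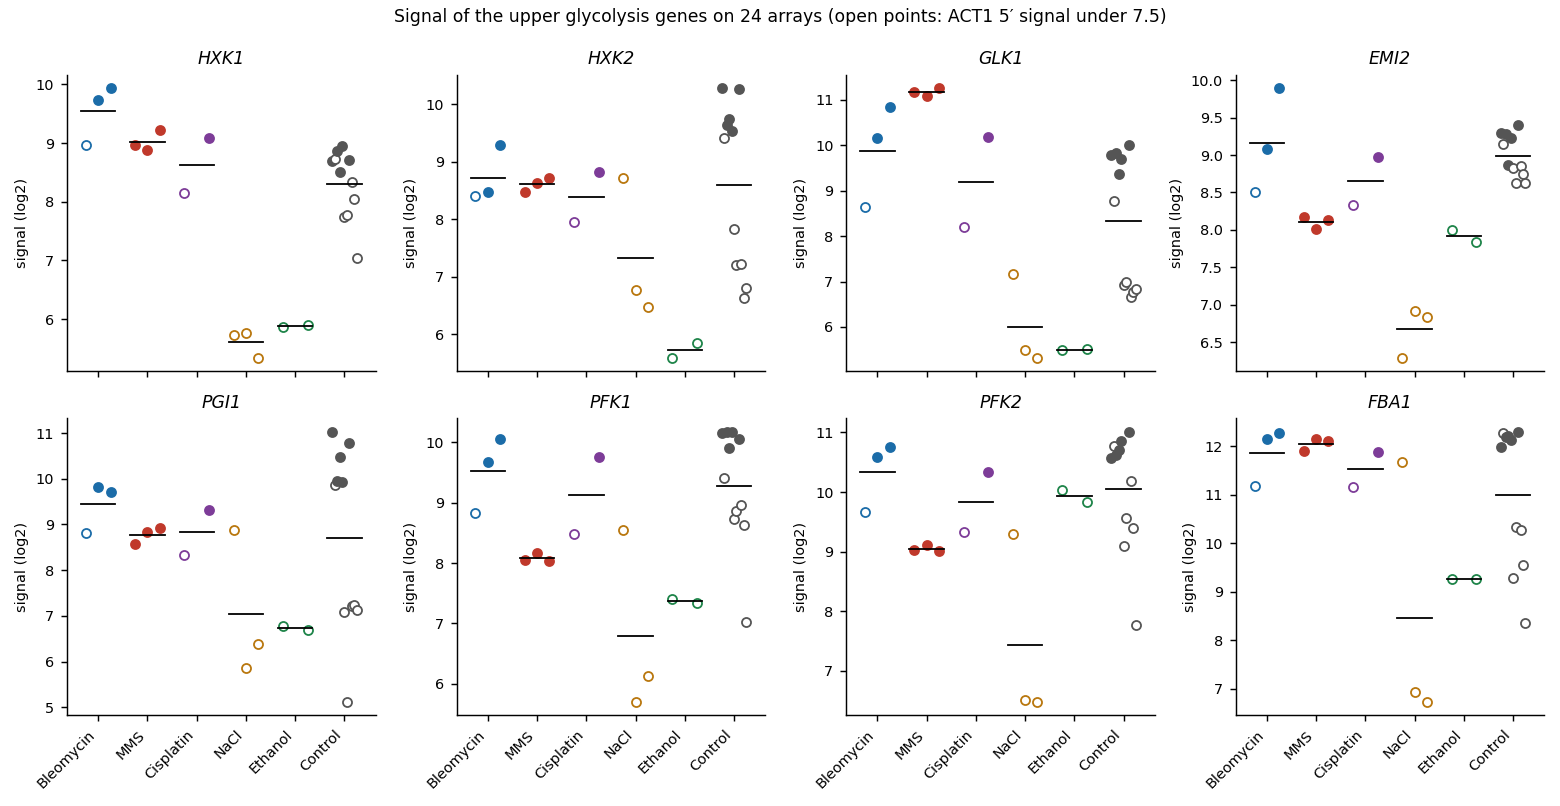
Quantile-normalized log2 signal of each of the 8 genes (y axis) on every array, by group (x axis: bleomycin, MMS, cisplatin, NaCl, ethanol, control); open points are arrays with an ACT1 5′ signal under 7.5 and bars are group means. HXK1 lies between 5.34 and 5.89 on all NaCl and ethanol arrays, below every control, and GLK1 lies between 11.09 and 11.26 with MMS, above every control.

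Against same-day controls, NaCl lowered all 8 genes, with log2 estimates from -3.65 (FBA1) to -2.19 (HXK2). MMS raised 4 of them (HXK1, HXK2, GLK1 and FBA1) and ethanol lowered HXK1. Each call is an adjusted p under 0.05 (limma with the day as a block on all 24 arrays, Benjamini-Hochberg over the 5171 genes). Bleomycin, NaCl and cisplatin arrays share days, so in that fit their estimates also draw on each other's arrays. Lower calls made up 37.6% of all genes with NaCl, where the median was -3.05 over the 8 genes and -0.45 over all. Higher calls made up 33.5% of all genes with MMS and lower calls 17%, and the medians were 1.40 over the 8 genes and 0.29 over all. With ethanol 1.18% of all genes were called lower and 3.83% higher, with medians of -1.12 over the 8 genes and 0.14 over all. With bleomycin and cisplatin 0 of the 8 were called, against 1.86% and 0.464% of all genes called in either direction. limma's unadjusted p was under 0.05 for 2 of the 8 with bleomycin and for 2 with cisplatin, and the medians were -0.61 and -0.86 over the 8 genes and -0.08 and -0.07 over all.

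**Figure D2:**
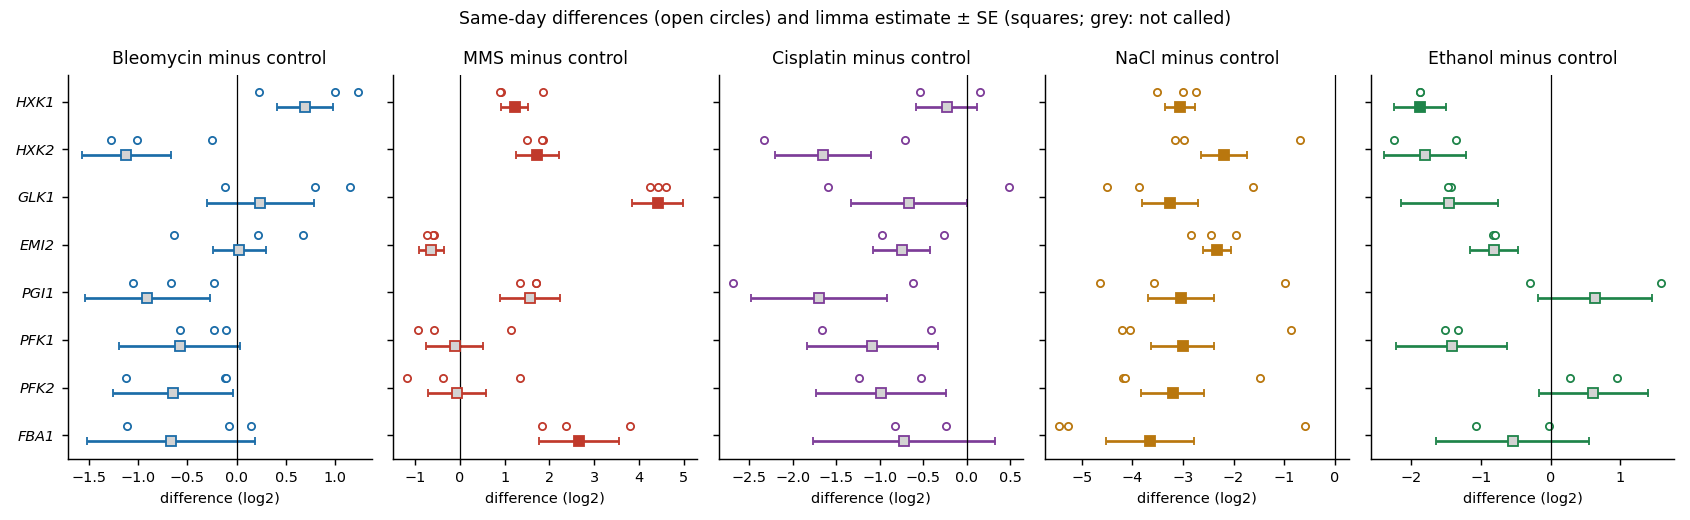
Difference of each treated array from its same-day control array (open circles) and limma estimate ± SE (squares, grey where the adjusted p was 0.05 or more) on the log2 scale (x axis) for the 8 genes (y axis), by agent. With MMS, GLK1 lies at 4.25 to 4.60 on the 3 arrays while its paralog EMI2 lies at -0.72 to -0.57; with NaCl, 1 of the 3 circles of FBA1 lies at -0.60 and the others at -5.27 and -5.46.

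HXK1 encodes hexokinase 1, the isoform that yeast makes when glucose runs short. Its signal was 8.96, 9.73 and 9.94 with bleomycin, 8.96, 8.89 and 9.23 with MMS and 8.15 and 9.09 with cisplatin. It was 5.73, 5.76 and 5.34 with NaCl and 5.87 and 5.89 with ethanol, and the 11 control arrays ran from 7.03 through a median of 8.50 to 8.94. Every NaCl array thus lay below every control, as for 5.2% of all genes, and so did every ethanol array, as for 9.4%. Every bleomycin array lay above every control, which held for 5.61% of all genes. HXK1 fell by 3.06 ± 0.291 (SE) with NaCl (limma adjusted p = 0.000117), which is 8.35-fold, and by 1.87 ± 0.369 with ethanol (adjusted p = 0.0176), 3.67-fold. Its same-day differences were -3.00, -2.74 and -3.52 with NaCl and -1.87 and -1.88 with ethanol, so that all 3 NaCl arrays and both ethanol arrays moved alike. Both calls held with the ACT1 class in place of the day, at -2.32 with NaCl and -2.05 with ethanol. The ethanol call was lost without either ethanol array or control replicate 6 or 7 (adjusted p = 0.153 to 0.248), with ethanol replicate 1 on a day of its own (adjusted p = 0.152) and with median scaling of the arrays (adjusted p = 0.0583).

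With MMS, HXK1 rose by 1.22 ± 0.301 (adjusted p = 0.00538), with same-day differences of 0.92, 1.85 and 0.89. The MMS arrays lay near the highest control, 8.94, and above their own same-day controls, 8.04, 7.03 and 8.33. The MMS estimate was 0.27 (adjusted p = 0.431) with the ACT1 class in place of the day and 0.72 (adjusted p = 0.0833) without any block. Without MMS replicate 2 or its same-day control, replicate 11, the adjusted p was 0.0576 and 0.0589. The bleomycin estimate was 0.69 ± 0.286 (adjusted p = 0.417) with the day block and 1.06 (adjusted p = 0.00931) with the ACT1 class in its place, where 4.18% of all genes were called higher.

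HXK2 encodes hexokinase 2, the main hexose kinase on glucose, which also takes part in glucose repression in the nucleus. Its signal was 8.41, 8.48 and 9.29 with bleomycin, 8.48, 8.64 and 8.72 with MMS and 7.96 and 8.83 with cisplatin. It was 8.73, 6.77 and 6.48 with NaCl and 5.59 and 5.86 with ethanol, and the controls ran from 6.63 through a median of 9.42 to 10.29. Only the ethanol arrays were separate from the controls, all below them, as for 9.4% of all genes. HXK2 fell by 2.19 ± 0.462 with NaCl (limma adjusted p = 0.00433), but the same-day difference was -0.70 for NaCl replicate 1 and -2.99 and -3.17 for replicates 2 and 3. The ethanol estimate was -1.80 ± 0.584 (adjusted p = 0.0985), with same-day differences of -2.24 and -1.36, and it was -2.03 with the ACT1 class in place of the day (adjusted p = 0.0357).

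The MMS result for HXK2 depended on the model term. With the day block it rose by 1.73 ± 0.477 (adjusted p = 0.00996), with same-day differences of 1.86, 1.83 and 1.502. Its MMS signals lay in the middle of the controls' range, above the low-class and below the high-class mean. With the ACT1 class in place of the day the estimate was -1.003 (adjusted p = 0.149), with the ACT1 middle signal as a term it was -0.68 (adjusted p = 0.0409), and without a block it was 0.01 (adjusted p = 0.991). The call was also lost without MMS replicate 1 or 2 or control replicate 10 or 11 (adjusted p = 0.0504 to 0.0507). Bleomycin gave -1.12 ± 0.453 (adjusted p = 0.396) and cisplatin -1.65 ± 0.556 (adjusted p = 0.241), and all 5 same-day differences of these agents were below 0, from -2.33 to -0.25.

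GLK1 encodes glucokinase, which acts on glucose and not on fructose. Its signal was 8.65, 10.15 and 10.84 with bleomycin, 11.17, 11.09 and 11.26 with MMS and 8.20 and 10.18 with cisplatin. It was 7.16, 5.49 and 5.32 with NaCl and 5.49 and 5.51 with ethanol, and the controls ran from 6.67 through a median of 8.77 to 10.00. The 3 MMS arrays were the highest of all 24 for this gene, and no other member lay above every control with MMS, where the MMS arrays lay above every control for 28.6% of all genes. GLK1 rose by 4.42 ± 0.571 with MMS (limma adjusted p = 7.3e-05), 21.4-fold, with same-day differences of 4.41, 4.25 and 4.60. The size depended on the controls: with the ACT1 class in place of the day it was 1.55 ± 0.408 (adjusted p = 0.00425), and with the ACT1 middle signal as a term 2.09 ± 0.209 (adjusted p = 3.32e-08). GLK1 was called higher with MMS under all 41 alternatives run, at 1.44 to 4.51, with an adjusted p of at most 0.00425. The MMS days hold no arrays of other agents. Leaving out an array of another day therefore could not move the day-block estimate, only its p.

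A second probe set that the table pairs with both GLK1 and YCL042W did not show this rise on every MMS array. Its signal was 7.18, 7.12 and 7.4998 with MMS, inside the controls' range of 4.86 to 8.54, and the MMS estimate was 0.83 ± 0.588 (limma adjusted p = 0.268 over all probe sets). With NaCl the estimate of the same probe set was -2.05 ± 0.57 (adjusted p = 0.0117). Which transcripts it reads was not tested.

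With NaCl, GLK1 fell by 3.26 ± 0.552 (limma adjusted p = 0.0018), with same-day differences of -1.61, -3.87 and -4.51. With ethanol it lay below every control on both arrays, as 9.4% of all genes did. Its estimate with ethanol was -1.45 ± 0.699 (adjusted p = 0.23), from same-day differences of -1.43 and -1.47. The ethanol estimate was -1.75 with the ACT1 class in place of the day (adjusted p = 0.016) and -0.64 with the ACT1 middle signal (adjusted p = 0.0958). The bleomycin arrays gave -0.12, 0.79 and 1.15 and the cisplatin arrays -1.59 and 0.49, so their signs were mixed.

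EMI2 is the paralog of GLK1 and takes its name from a part in early meiotic induction. Its signal was 8.50, 9.08 and 9.90 with bleomycin, 8.17, 8.01 and 8.13 with MMS and 8.33 and 8.97 with cisplatin. It was 6.29, 6.91 and 6.84 with NaCl and 7.99 and 7.83 with ethanol, and the controls ran from 8.62 through a median of 8.86 to 9.41. All MMS, NaCl and ethanol arrays lay below every control. Such a separation from the controls was seen for 13.2% of all genes with MMS, for 5.2% with NaCl and for 9.4% with ethanol. It was the narrowest control range of the 8 genes, and EMI2 varied least with the ACT1 class.

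EMI2 fell by 2.33 ± 0.273 with NaCl (limma adjusted p = 0.000347), 5.02-fold, with same-day differences of -2.85, -1.95 and -2.45. It was the only one of the 8 whose largest fall was on NaCl replicate 1. With MMS the estimate was -0.63 ± 0.282 (adjusted p = 0.0801) with the day block and -1.18 ± 0.22 (adjusted p = 0.000184) with the ACT1 class in its place, and the same-day differences were -0.57, -0.61 and -0.72. GLK1 and EMI2 thus stood 4.98, 4.86 and 5.32 apart in their MMS differences, with GLK1 the higher on each array. The ethanol estimate was -0.81 ± 0.346 (adjusted p = 0.183), with same-day differences of -0.83 and -0.80.

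PGI1 encodes phosphoglucose isomerase, the single enzyme of its step. Its signal was 8.82, 9.81 and 9.71 with bleomycin, 8.57, 8.83 and 8.92 with MMS and 8.34 and 9.32 with cisplatin. It was 8.88, 5.85 and 6.38 with NaCl and 6.78 and 6.70 with ethanol, and the controls ran from 5.12 (control replicate 7) through a median of 9.87 to 11.03. No agent's arrays were separate from these controls, whose range was the widest of the 8 genes. PGI1 fell by 3.03 ± 0.65 with NaCl (limma adjusted p = 0.0046), with same-day differences of -0.99, -4.63 and -3.57. The MMS estimate was 1.57 ± 0.671 (adjusted p = 0.0693) with the day block and -1.30 (adjusted p = 0.163) with the ACT1 class in its place. The cisplatin estimate was -1.70 ± 0.782 (adjusted p = 0.4), from same-day differences of -2.69 and -0.62, and the same-day differences of the ACT1 5′ signal were -5.38 and -0.13 on these 2 arrays. With ethanol the same-day differences were -0.30 and 1.58, the second against control replicate 7.

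PFK1 and PFK2 encode the alpha and beta subunits of phosphofructokinase, the step that commits sugar to glycolysis. PFK1 was at 8.83, 9.67 and 10.06 with bleomycin, 8.05, 8.16 and 8.04 with MMS, 8.49 and 9.76 with cisplatin, 8.54, 5.70 and 6.13 with NaCl and 7.40 and 7.35 with ethanol. Its controls ran from 7.02 (control replicate 11) through a median of 9.41 to 10.17. PFK2 was at 9.66, 10.59 and 10.76 with bleomycin, 9.02, 9.11 and 9.01 with MMS, 9.33 and 10.34 with cisplatin, 9.30, 6.52 and 6.48 with NaCl and 10.04 and 9.84 with ethanol. Its controls ran from 7.76 (control replicate 11) through a median of 10.56 to 11.01. Apart from control replicate 11, which had a low ACT1 3′ signal, every control lay above all 3 MMS arrays for PFK1.

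Both subunit genes fell with NaCl, PFK1 by 3.01 ± 0.625 (limma adjusted p = 0.00414) and PFK2 by 3.20 ± 0.62 (adjusted p = 0.00311). The same-day differences were -0.87, -4.20 and -4.04 for PFK1 and -1.48, -4.20 and -4.14 for PFK2. With MMS the estimates were -0.12 ± 0.646 for PFK1 (adjusted p = 0.892) and -0.07 ± 0.64 for PFK2 (adjusted p = 0.94), but the 3 arrays did not move alike. The differences were -0.57, 1.14 and -0.93 for PFK1 and -0.37, 1.35 and -1.18 for PFK2, and the positive ones were against control replicate 11. Both were lower with MMS in the ACT1 class fit, PFK1 at -1.95 ± 0.467 (adjusted p = 0.00205) and PFK2 at -1.66 ± 0.528 (adjusted p = 0.0156). Without the 3 arrays of low ACT1 3′ signal and with the day block they were also lower, at -0.75 (adjusted p = 0.027) and -0.77 (adjusted p = 0.0399). With ethanol the subunits parted: PFK1 differed by -1.33 and -1.51 from its same-day controls and PFK2 by 0.95 and 0.27, with estimates of -1.42 ± 0.791 (adjusted p = 0.297) and 0.61 ± 0.784 (adjusted p = 0.672).

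FBA1 encodes fructose-bisphosphate aldolase, the single aldolase of yeast. Its signal was 11.17, 12.13 and 12.26 with bleomycin, 11.90, 12.13 and 12.10 with MMS and 11.16 and 11.88 with cisplatin. It was 11.68, 6.93 and 6.73 with NaCl and 9.26 and 9.27 with ethanol, and the controls ran from 8.34 (control replicate 11) through a median of 11.98 to 12.29. The MMS arrays thus reached the level of the high-class controls, 11.98 to 12.29, and did not pass it. FBA1 rose by 2.66 ± 0.896 with MMS (limma adjusted p = 0.0269) with the day block, from same-day differences of 2.36, 3.79 and 1.83. With the ACT1 class in place of the day the estimate was 0.09 (adjusted p = 0.938), with the ACT1 middle signal as a term 0.34 (adjusted p = 0.632), and without a block 1.06 (adjusted p = 0.34). The call was lost without MMS replicate 1 or 2 or control replicate 10 or 11 (adjusted p = 0.0714 to 0.162).

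With NaCl, FBA1 fell by 3.65 ± 0.868 (limma adjusted p = 0.00696), with same-day differences of -0.60, -5.27 and -5.46. That spread was the widest of the 8 genes. The call was lost without NaCl replicate 2, NaCl replicate 3 or control replicate 3 (adjusted p = 0.0715 to 0.0729). The ethanol estimate was -0.54 ± 1.1 (adjusted p = 0.795), with same-day differences of -0.03 and -1.06.

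The size of the NaCl result was thus shared unequally by its 3 arrays. The median difference over the 8 genes was -1.23 for NaCl replicate 1, -4.03 for replicate 2 and -3.81 for replicate 3, and all 8 differences were below 0 on each of the 3. The same-day differences of the ACT1 3′ signal were -0.91, -3.69 and -3.72 on these arrays, and those of the ACT1 middle signal -0.85, -4.09 and -3.99. Without NaCl replicates 2 and 3, HXK1 (-2.74) and EMI2 (-2.51) were the 2 genes still called (adjusted p = 0.00879 for each), where 4.66% of all genes were called. Without them the other estimates ran from -1.33 (GLK1) to -0.23 (FBA1). With the ACT1 class in place of the day 5 of the 8 were called lower with NaCl, where 24.4% of all genes were, and HXK2 (-0.43), PGI1 (-0.54) and FBA1 (-1.73) were not. In a fit of the 3 NaCl arrays and their same-day controls alone, 0 of the 8 were called (limma adjusted p = 0.0924 to 0.103), as were 0.0193% of all genes, at like estimates of -3.78 to -2.28.

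**Figure D3:**
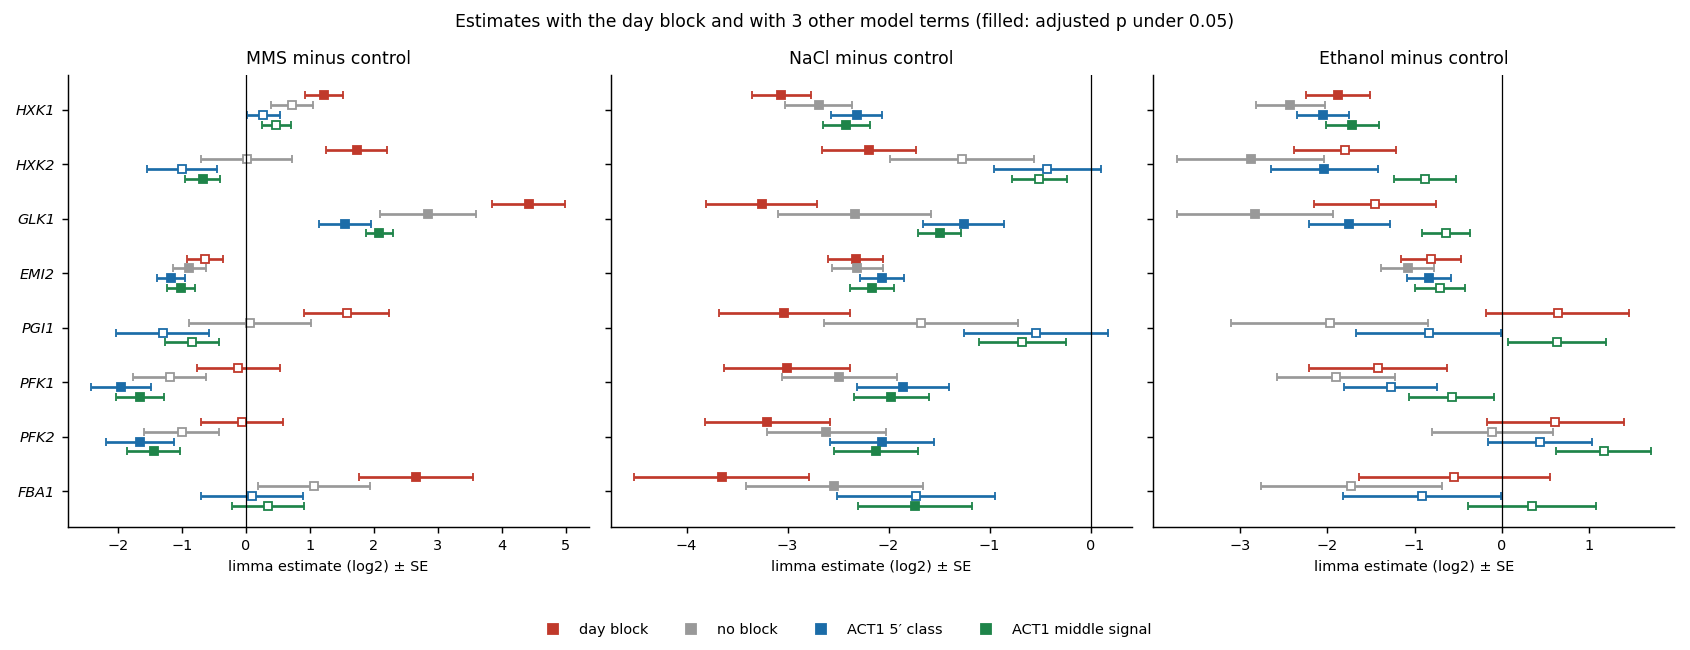
limma estimate ± SE on the log2 scale (x axis) for MMS, NaCl and ethanol minus control for the 8 genes (y axis) under 4 models: day block (red), no block (grey), ACT1 5′ class (blue) and ACT1 middle signal (green); filled squares have an adjusted p under 0.05. GLK1 with MMS, HXK1 with ethanol and HXK1, GLK1, EMI2, PFK1 and PFK2 with NaCl are filled in all 4. FBA1 with MMS goes to 0.09 with the ACT1 class, against 2.66 with the day block.

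With MMS the ACT1 5′ signal was 3.21, 2.82 and 4.07 above that of the same-day controls and the middle signal 3.72, 3.51 and 4.08 above. Over the 8 genes the ACT1 class fit called 1 higher (GLK1) and 3 lower (EMI2, PFK1 and PFK2), where 24.7% of all genes were called higher and 15.5% lower. The fit with the ACT1 middle signal called GLK1 higher and HXK2, EMI2, PFK1 and PFK2 lower, where 31.1% of all genes were called higher and 19.3% lower. What part the state of the RNA had in the rises of HXK1, HXK2 and FBA1 was not tested beyond these fits. With ethanol the ACT1 class fit called HXK1, HXK2, GLK1 and EMI2 lower, where 4.06% of all genes were called lower. The same 4 lay below every control on both ethanol arrays, as 9.4% of all genes did. The fit with the ACT1 middle signal called HXK1 alone (-1.71, adjusted p = 0.000688), where 7.39% of all genes were called lower. In that fit HXK2 was at -0.88 (adjusted p = 0.0801), GLK1 at -0.64 (adjusted p = 0.0958) and EMI2 at -0.71 (adjusted p = 0.0803). Without the 3 arrays of low ACT1 3′ signal and with the day block, 7 of the 8 were called with MMS (5 higher and 2 lower), 5 with ethanol, 4 with cisplatin and 2 with bleomycin. All genes were called at 62.8% with MMS, 42.6% with ethanol, 19.8% with cisplatin and 10.9% with bleomycin in that fit. The cisplatin calls were HXK2 (-1.61, adjusted p = 0.0061), PGI1 (-1.67, adjusted p = 0.0175), PFK1 (-1.04, adjusted p = 0.0155) and PFK2 (-0.94, adjusted p = 0.0389). The bleomycin calls were HXK1 (0.76, adjusted p = 0.0293) and HXK2 (-0.96, adjusted p = 0.0376). Leaving out NaCl replicate 1 alone also brought other agents' estimates below an adjusted p of 0.05, at values little changed. All genes were called at 64.2% with MMS, 6.79% with cisplatin and 25.6% with ethanol in that fit, against 50.5% with MMS, 0.464% with cisplatin and 5.01% with ethanol when every array was kept. The member calls gained were EMI2 (adjusted p = 0.036) and PGI1 (adjusted p = 0.00317) with MMS, HXK2 (adjusted p = 0.017) and PGI1 (adjusted p = 0.0476) with cisplatin and HXK2 (adjusted p = 0.00405), GLK1 (adjusted p = 0.0182) and PFK1 (adjusted p = 0.0263) with ethanol. PGI1 with MMS was called without NaCl replicate 2 as well (adjusted p = 0.0312), where 51.6% of all genes were.

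**Figure D4:**
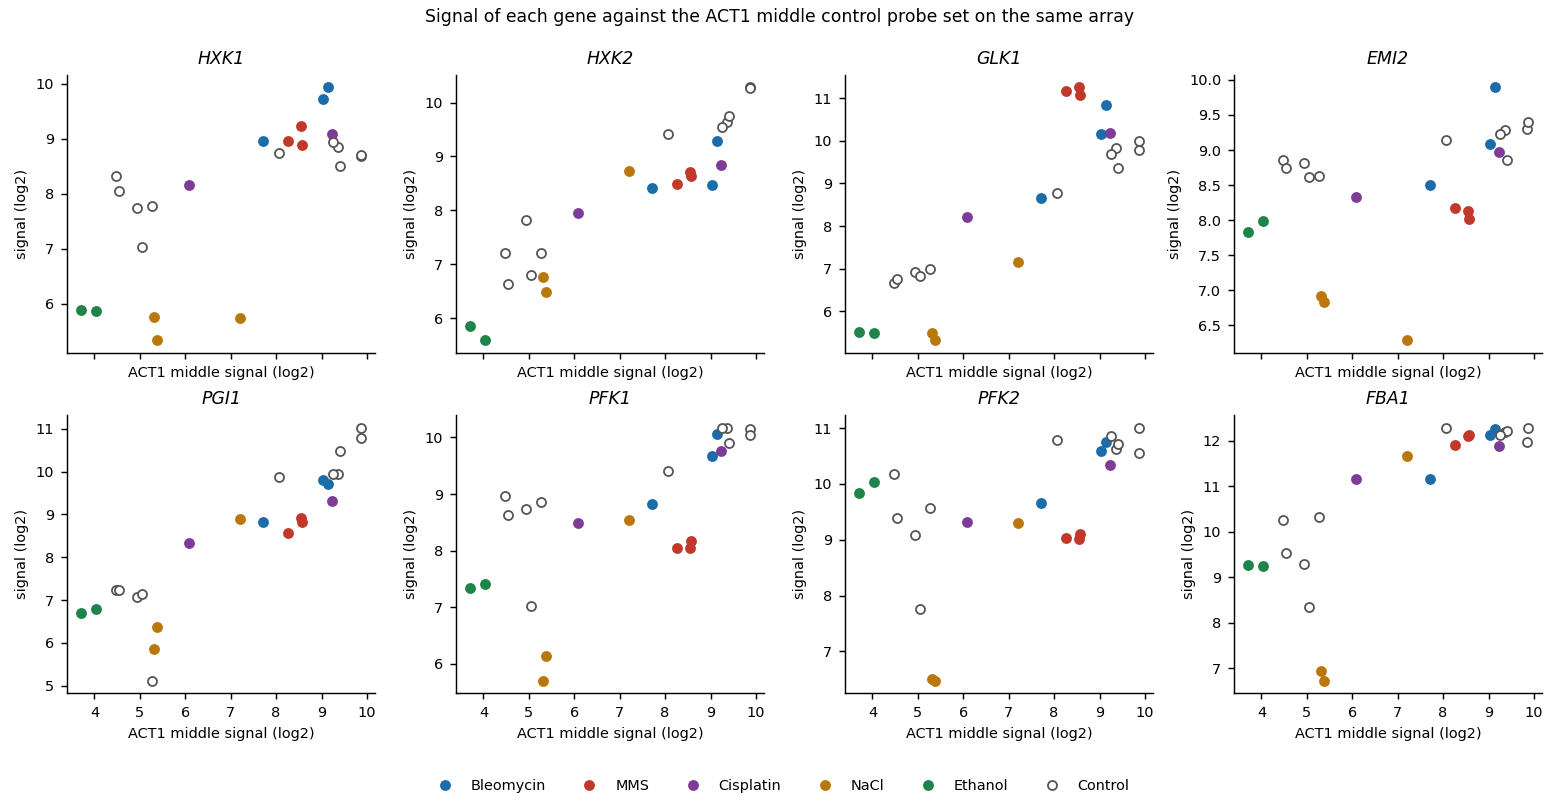
Signal of each of the 8 genes (y axis, log2) against the ACT1 middle signal (x axis, log2) on the 24 arrays, coloured by group with open circles for controls. Control signals of GLK1, PGI1, HXK2 and FBA1 are higher where the ACT1 signal is higher; with NaCl, HXK1 and EMI2 lie below every control on all 3 arrays, and with MMS, GLK1 lies above every control and PFK1 and PFK2 lie below the controls of high ACT1 signal.

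The order of the groups by mean signal differed between the genes. These means pool arrays of either ACT1 5′ class and are not set against same-day controls. Bleomycin came highest for HXK1 (9.54 ± 0.51), HXK2, EMI2 (9.16 ± 0.70), PGI1, PFK1 and PFK2, and MMS for GLK1 (11.18 ± 0.09) and FBA1 (12.05 ± 0.12). Yet with the day block the bleomycin estimates were below 0 for HXK2 (-1.12), PGI1 (-0.90), PFK1 (-0.58) and PFK2 (-0.65). They were above 0 for HXK1 (0.69) and EMI2 (0.03), and none was called. NaCl came lowest for HXK1, EMI2, PFK1, PFK2 and FBA1 and ethanol for HXK2, GLK1 and PGI1. Of neighbours in that order, the ranges of NaCl and ethanol overlapped for GLK1, PGI1, PFK1 and FBA1. They did not for HXK1 (5.88 ± 0.02 with ethanol and 5.61 ± 0.24 with NaCl) and EMI2, where ethanol lay above NaCl as for 31.5% of all genes, nor for HXK2, where it lay below as for 14.9%. For EMI2, PFK1 and PFK2 the MMS arrays lay below both cisplatin arrays, the next group above them, as they did for 29.5% of all genes. For EMI2 and PFK1 they lay above both ethanol arrays, the next below, as they did for 49.8%. For GLK1 the MMS arrays lay above all bleomycin arrays (9.88 ± 1.12), as they did for 38.3% of all genes, and for HXK1 ethanol lay below the controls. All other neighbours in the order overlapped.

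Paralogous genes were compared array by array, with cross-hybridisation between paralogs not tested. With bleomycin HXK1 differed from its same-day controls by 0.23, 1.23 and 1.00 and HXK2 by -1.01, -1.28 and -0.25, so that HXK1 stood 1.24, 2.50 and 1.24 above HXK2. With NaCl replicate 1 HXK1 differed by -3.00 and HXK2 by -0.70, while on replicates 2 and 3 HXK1 minus HXK2 was 0.25 and -0.35. With MMS HXK1 minus HXK2 was -0.94, 0.02 and -0.61, and with cisplatin it was 1.79 and 0.86. Bleomycin replicate 3 and cisplatin replicate 2 were set against the same control array, so these gaps are not separate observations, and the gap itself was not tested.

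Differences between agents were tested directly in the fit with the day block. Bleomycin shares its days with NaCl or cisplatin arrays, so its estimates there also draw on those arrays. The bleomycin median over the 8 genes was -0.61 in that fit. It was -0.33 in a fit of the bleomycin arrays and their same-day controls alone. MMS exceeded bleomycin for HXK2 by 2.85 ± 0.658 (limma adjusted p = 0.00603) and for GLK1 by 4.18 ± 0.787 (adjusted p = 0.00196), 2 of the 8, where 25.9% of all genes were called higher and 10.4% lower. Cisplatin was below MMS for 4 of the 8, where 25.6% of all genes were lower. Cisplatin minus MMS was -5.08 ± 0.876 for GLK1 (adjusted p = 0.00131), -3.38 ± 0.732 for HXK2 (adjusted p = 0.0046), -3.27 ± 1.03 for PGI1 (adjusted p = 0.0281) and -1.45 ± 0.462 for HXK1 (adjusted p = 0.0292). Ethanol was above NaCl for 3 of the 8, where 26.2% of all genes were higher: PFK2 by 3.81 ± 0.999 (adjusted p = 0.0198), PGI1 by 3.67 ± 1.05 (adjusted p = 0.0241) and EMI2 by 1.51 ± 0.441 (adjusted p = 0.0255). Whichever array was left out, the GLK1 differences and the HXK2 difference between MMS and bleomycin kept their calls, but not under every other model. In the ACT1 class fit MMS minus bleomycin was 0.50 for GLK1 (adjusted p = 0.48) and -0.73 for HXK2 (adjusted p = 0.438). The calls in that fit were EMI2 (-1.23), PFK1 (-1.90) and PFK2 (-1.69), all lower with MMS. It called 27.6% of all genes, 557 of 5171 lower and 871 higher. Without a block MMS minus bleomycin was 1.30 for GLK1 (adjusted p = 0.351) and -0.11 for HXK2 (adjusted p = 0.95). EMI2, lower with MMS, was the 1 call there, where 23.8% of all genes were called, 412 lower and 817 higher. With the ACT1 middle signal GLK1 was called at 1.40 (adjusted p = 0.000176) and HXK2 was not (-0.02, adjusted p = 0.972), and EMI2 and PFK1 were called lower, where 37.1% of all genes were called. Cisplatin minus MMS for GLK1 was -0.80 with the class (adjusted p = 0.348), -1.98 without a block (adjusted p = 0.206) and -1.47 with the middle signal (adjusted p = 5e-04). HXK2 lost its call between cisplatin and MMS without cisplatin replicate 1 or its control, replicate 1 (adjusted p = 0.054 and 0.0536). HXK1 lost it there without bleomycin replicate 3, MMS replicate 2, either cisplatin array or control replicate 1 or 11 (adjusted p = 0.0558 to 0.177), and PGI1 without bleomycin replicate 3, any MMS array, cisplatin replicate 1 or control replicate 1, 9, 10 or 11 (adjusted p = 0.0521 to 0.197). All 3 calls between ethanol and NaCl were lost without NaCl replicate 2 or 3, either ethanol array or control replicate 3, 6 or 7 (adjusted p = 0.0531 to 0.153), and with ethanol replicate 1 on a day of its own (adjusted p = 0.0889 to 0.136), and PGI1 also without control replicate 4. Cisplatin minus bleomycin passed for 0 of the 8 and for 0.135% of all genes, with an unadjusted p under 0.05 for 1 of the 8. With the ACT1 class in place of the day, 0 of the 8 were called between cisplatin and MMS, where 19.4% of all genes were.

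The rest of the pathway was read from lists of named genes. Of the genes below aldolase, 9 of 10 listed were tested, since TDH2 had no usable probe set. MMS raised 4 of the 9, with ENO2 (enolase) at 5.44 ± 1.17, PGK1 (phosphoglycerate kinase) at 4.13 ± 0.713, ENO1 at 4.06 ± 0.749 and TDH3 (glyceraldehyde-phosphate dehydrogenase) at 3.10 ± 0.738, where 33.5% of all genes were called higher. With the ACT1 class in place of the day 0 of the 9 were called with MMS, with an unadjusted p under 0.05 for 1. In that fit 24.7% of all genes were called higher and 15.5% lower. With the ACT1 middle signal 1 of the 9 was called higher with MMS, where 31.1% of all genes were. NaCl lowered 8 of the 9, most of all ENO2 (-5.79 ± 1.13) and PGK1 (-4.54 ± 0.691) and least TPI1 (-2.35 ± 0.608) and GPM1 (-2.17 ± 0.593), where 37.6% of all genes were called lower. In the class fit 3 of the 9 were lower, where 24.4% of all genes were, and with the ACT1 middle signal 8 were, where 29.5% were.

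The list of fructose bisphosphate control held PFK26 and PFK27, which make the activator of phosphofructokinase, fructose 2,6-bisphosphate, FBP26, which breaks that activator down, and FBP1, the fructose 1,6-bisphosphatase of gluconeogenesis. MMS raised 3 of the 4, PFK27 by 2.24 ± 0.268 (limma adjusted p = 4.57e-05), PFK26 by 2.16 ± 0.219 (adjusted p = 1.37e-05) and FBP26 by 1.45 ± 0.195 (adjusted p = 9.87e-05), where 33.5% of all genes were called higher. In the ACT1 class fit 3 of the 4 were called higher with MMS, where 24.7% of all genes were. NaCl lowered PFK27 (-1.36 ± 0.26, adjusted p = 0.0029) and FBP26 (-0.83 ± 0.188, adjusted p = 0.00588), 2 of the 4, where 37.6% of all genes were called lower. In the class fit NaCl called 0 of the 4 (lowest -0.47, with an unadjusted p under 0.05 for 1), where 24.4% of all genes were called lower and 10.1% higher. With the ACT1 middle signal it called 2 lower, where 29.5% of all genes were. Bleomycin, cisplatin and ethanol called 0 of the 4, where 1.86%, 0.464% and 5.01% of all genes were called. The unadjusted p was under 0.05 for 2, 0 and 0.

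Routes that leave glycolysis at the hexose phosphates were listed with 13 genes. MMS raised 6, with ZWF1 (glucose 6-phosphate dehydrogenase, the entry to the pentose phosphate pathway) at 5.23 ± 0.536 and TPS1 (trehalose 6-phosphate synthase) at 3.03 ± 0.36 highest and SOL4 (6-phosphogluconolactonase) at 1.10 ± 0.258 lowest, and lowered PGM1 (phosphoglucomutase, -1.35 ± 0.264), where 33.5% of all genes were called higher and 17% lower. The class fit called 2 of the 13 higher and 5 lower, where 24.7% and 15.5% of all genes were. NaCl lowered 10, with PGM2 (phosphoglucomutase) at -4.95 ± 0.737 and TPS2 (trehalose 6-phosphate phosphatase) at -2.52 ± 0.402 lowest and GFA1 (hexosamine synthesis) at -1.19 ± 0.377 and GPD2 (glycerol synthesis) at -1.08 ± 0.366 highest, where 37.6% of all genes were called lower, and the class fit called 6 lower, where 24.4% were. Bleomycin raised SOL4 by 1.41 ± 0.245 (limma adjusted p = 0.0111), 1 of the 13, where 1.86% of all genes were called.

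Regulators of glycolytic and glucose-repressed genes were listed with 16 genes. MMS raised 4, REG1 (2.23 ± 0.254) and RGT1 (2.17 ± 0.37) highest and GCR2 (1.12 ± 0.399) lowest, and lowered the glucose sensor RGT2 (-0.48 ± 0.17). The 4 of 16 lay under the 33.5% of all genes called higher, and the 1 of 16 under the 17% called lower. Reg1 directs the phosphatase that opposes the kinase Snf1, Rgt1 represses hexose transporter genes and Gcr2 is a coactivator of glycolytic genes. NaCl raised MIG2 (1.27 ± 0.368) and RGT2 (0.52 ± 0.164) and lowered 6, MTH1 (-2.02 ± 0.347) and the glycolytic activator GCR1 (-1.68 ± 0.54) most, where 14.1% of all genes were called higher and 37.6% lower, close to the share among the 16. In the class fit MMS was called for 2 higher and 0 lower, where 24.7% and 15.5% of all genes were, and NaCl for 0 higher and 5 lower, where 10.1% and 24.4% were.

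The genes whose pattern was most like that of each member were ranked by Pearson's r over the 13 same-day differences, several of which share a control array. GLK1 was most like COQ4 (0.988), PGK1 (0.988) and CAB4 (0.987), and HXK1 most like HSP30 (0.981), TPS2 (0.967) and SPI1 (0.966). HXK2 was most like RPN7 (0.979), PGI1 like VMA2 (0.974), PFK1 like RPL14B (0.975), PFK2 like MMF1 (0.988) and FBA1 like RPL3 (0.99). EMI2 had no gene so near, its best being CTR1 (0.928), GPH1 (0.926) and UIP4 (0.924). Among the 8 genes r ran from 0.399 between HXK2 and EMI2 to 0.957 between HXK2 and GLK1, and it was 0.583 between the paralogs GLK1 and EMI2, 0.741 between HXK1 and HXK2 and 0.864 between PFK1 and PFK2. These values are a description of 13 differences that also share the ACT1 shifts given above.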

How the data were processed

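The deposited values were signals on the log2 scale, 1 per probe set and array of the Affymetrix Yeast Genome S98 array, as their range of 1.42 to 14.39 shows. Per the labels' protocols, poly(A)+ RNA was copied with an oligo(dT) primer and labelled cRNA was hybridised; how the signals were summarised and normalized is not given in the sources used here. Array medians were 5.33 to 5.63, and 0 columns were identical. The number of arrays limits the precision.

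Of 9335 probe sets, 60 were controls. The other 9275 were quantile-normalized between arrays. By the probe-to-gene list, 6504 of them name a single gene and 328 more than 1, and the remaining 2443 are not listed. A gene was tested where its mean signal passed the 20th percentile of all signals (3.79), with limma 3.58.1 in R 4.3.3 (lmFit, then eBayes with an intensity trend), with 5 agent terms and the day as a fixed block, which left 8 residual degrees of freedom. The fit was also run on simulated data. These held independent noise and no ACT1 shift between arrays of a day, so they do not bear on such a shift. Adjusted p is Benjamini-Hochberg over 5171 genes. Ethanol replicate 1 was taken as of the day of control replicate 6, although its title gives another year. Over 13 same-day pairs, deviations from the group means correlated from -0.565 to 0.68, above 0.1 in 6 and below -0.1 in 5, so the pairing rests on the titles. Python 3.11.15 with matplotlib 3.10.9 drew the figures.

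Alternatives were another scaling, filter, pseudocount, variance prior, day term, probe set rule and set of arrays, each array left out, and terms for the ACT1 signal. The genes, lists and tests were chosen with earlier results of these data known, and the ACT1 middle term and leaving out NaCl replicates 2 and 3 together were added after seeing the data. All 8 genes are named in every comparison. Of a list, up to 4 called genes are named, the highest and lowest estimates, and for likeness the 3 tested genes of highest r for a member. No promoter or protein sequence was used here.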

Additional observations from a re-analysis of the deposited data

Results flagged for a closer look

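The results here are differences between agents in the fit with the day block. Each passed limma's test of the difference itself (adjusted p under 0.05 over all genes). MMS minus bleomycin was 2.85 for HXK2 and 4.18 for GLK1. Cisplatin minus MMS was -1.45 for HXK1, -3.38 for HXK2, -5.08 for GLK1 and -3.27 for PGI1. Ethanol minus NaCl was 1.51 for EMI2, 3.67 for PGI1 and 3.81 for PFK2. With the ACT1 class in place of the day, GLK1 lost its call both between MMS and bleomycin (0.50, adjusted p = 0.48) and between cisplatin and MMS (-0.80, adjusted p = 0.348). HXK2 turned in sign in both comparisons, and HXK1 and PGI1 between cisplatin and MMS.

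Between MMS and bleomycin or cisplatin, the same-day controls of MMS had low ACT1 5′ signals and the MMS arrays did not, and the part of this in the differences was not tested. Between ethanol and NaCl, the EMI2, PGI1 and PFK2 differences lost their calls without NaCl replicate 2 or 3 or either ethanol array. Dixon's test was not used.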

How the results depend on the processing

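Under all 41 alternatives run, GLK1 stayed higher with MMS and called, though leaving out an array of another day could not move its estimate. HXK1 and EMI2 stayed lower with NaCl and were called under 40, which include fits with NaCl replicate 1 as the only NaCl array. The exception was the limma fit of only the arrays compared (adjusted p = 0.0924). Counts of the 8 genes called are given for each setting wherever they moved by more than 1.5 times from those of the fit with the day block, each followed in brackets by the share of all genes called in the same fit. With the day block they were MMS 4 (50.5%), NaCl 8 (51.7%), ethanol 1 (5.01%), bleomycin 0 (1.86%), cisplatin 0 (0.464%), MMS minus bleomycin 2 (36.3%), cisplatin minus MMS 4 (36.1%) and ethanol minus NaCl 3 (36%). With no replicate block they were 2 for MMS (44.6%), 4 for ethanol (11.7%), 1 for bleomycin (4.06%), 1 for MMS minus bleomycin (23.8%) and 0 for cisplatin minus MMS (18.4%). The day as a random replicate block gave the same counts (45.5%, 11.6%, 4.02%, 24.2% and 19.4% in that order). Its estimated correlation within days was 0.0413, so that fit is near the one without a block. The counts thus depend on whether the day is a fixed block. With the ACT1 5′ class they were 1 for bleomycin (5.01%), 5 for NaCl (34.5%), 4 for ethanol (11.7%) and 0 for cisplatin minus MMS (19.4%), and with the ACT1 middle signal 1 for bleomycin (5.74%), 1 for cisplatin minus MMS (28.2%) and 5 for ethanol minus NaCl (54.8%). MMS minus bleomycin gave 3 in both ACT1 fits (27.6% and 37.1%), with GLK1 among them only with the middle signal. Within the high class they were 3 for bleomycin (19.6%), 2 for cisplatin (15.9%) and 6 for MMS minus bleomycin (59.5%), and within the low class 2 for NaCl (7.72%) and 0 for ethanol minus NaCl (1.9%). These counts take no account of direction. With MMS the day block called 4 higher and 0 lower, and the ACT1 class 1 higher and 3 lower (40.2%). Within the high class MMS called 1 higher (GLK1) and 5 lower (70.5%), the lower calls being HXK2, EMI2, PGI1, PFK1 and PFK2. NaCl and ethanol within the high class and MMS within the low class could not be fitted, for want of arrays. Without the 3 arrays of low ACT1 3′ signal they were 2 for bleomycin (10.9%), 7 for MMS (62.8%), 4 for cisplatin (19.8%), 5 for ethanol (42.6%) and 4 for MMS minus bleomycin (54%). Without NaCl replicates 2 and 3 together they were 1 for cisplatin (5.8%), 4 for ethanol (24.8%) and 4 for MMS minus bleomycin (51.9%). Both of these fits kept NaCl replicate 1 as the only NaCl array, so no count is given for NaCl or for ethanol minus NaCl. With only the arrays compared they were 2 for bleomycin (9.94%), 0 for NaCl (0.0193%), 5 for ethanol (26.1%), 4 for MMS minus bleomycin (47.5%) and 0 for ethanol minus NaCl (0%). With median scaling they were 0 for ethanol (7.16%), 4 for MMS minus bleomycin (44.2%) and 5 for ethanol minus NaCl (44.5%), and MMS minus bleomycin was also 4 with the deposited signals as given (44%) and with a pseudocount (37.8%). With ethanol replicate 1 as a day of its own they were 0 for ethanol (1.53%) and for ethanol minus NaCl (2.4%). Leaving out each array in turn gave 1 to 6 for MMS, 7 to 8 for NaCl, 0 to 4 for ethanol, 0 to 0 for bleomycin, 0 to 2 for cisplatin, 2 to 4 for MMS minus bleomycin, 0 to 0 for cisplatin minus bleomycin, 1 to 5 for cisplatin minus MMS and 0 to 8 for ethanol minus NaCl. The lowest MMS count was without MMS replicate 2 or control replicate 11 (36.5% each), the lowest ethanol count without either ethanol array or control replicate 6 or 7 (0.116% to 1.57%), and the highest counts of ethanol and of ethanol minus NaCl without NaCl replicate 1 (25.6% and 69.8%). The lowest count of ethanol minus NaCl was without NaCl replicate 2 or 3, either ethanol array or control replicate 3, 6 or 7 (0% to 6.44%), and that of cisplatin minus MMS without cisplatin replicate 1 or control replicate 1 (16.5% and 16.6%).

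Some estimates turned in sign with a call in the day-block fit, in the other fit or in both, and the cause was not tested. HXK2 with MMS was called in both directions. It was called higher with the day block. It was called lower within the high class (limma adjusted p = 5.15e-05) and with the ACT1 middle signal (adjusted p = 0.0409). With MMS, HXK2 went to -1.003 with the ACT1 class, -1.29 within the high class and -0.68 with the ACT1 middle signal, and within the high class PGI1 went to -1.66 and FBA1 to -0.11. For MMS minus bleomycin, HXK2 went to -0.11 with no replicate block, -0.73 with the class, -0.27 within the high class and -0.019 with the middle signal. PFK1 went to -1.90, -1.78 and -1.37 with the class, within the high class and with the middle signal, and PFK2 to -1.69 and -1.62 in the first pair of these. Within the high class HXK1 went to -0.81 and PGI1 to -0.99. For cisplatin minus MMS, PGI1 went to 0.056 with no replicate block, 1.31 with the class, 0.54 within the high class and 0.67 with the middle signal. HXK1 went to 0.010 with the class and 0.067 within the high class, and HXK2 to 0.71 and 0.22 there and to 0.25 with the middle signal. EMI2, PFK1 and PFK2 went to 0.86, 1.68 and 1.29 within the high class. For ethanol minus NaCl, PGI1 went to -0.30 with no replicate block, with the class and within the low class and to -0.13 with the random block.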
